A study of Mus musculus with 12 samples.

Results

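Aminoacyl-tRNA synthetases are the enzymes that join each amino acid to its transfer RNA (tRNA). The genes described here were those whose symbol has the standard synthetase form in mouse (for example Nars, Mars1 or Lars2, with Farsa and Farsb for the 2 subunits of the phenylalanine enzyme and Eprs for the joint glutamate and proline enzyme). This rule gave 37 genes in each deposited table, of 17866 genes listed in the knockdown table and 19390 in the immunoprecipitation table. By symbol, 20 encode cytosolic enzymes and 17, with the suffix 2, mitochondrial enzymes. Kars and Gars were counted as cytosolic, although each is known to encode both the cytosolic and the mitochondrial enzyme.

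The cytosolic synthetases supply charged tRNAs to the ribosomes that translate nuclear-encoded messages, and the mitochondrial enzymes, also nuclear-encoded, supply the separate translation system of the organelle. Several cytosolic synthetases (those for leucine, isoleucine, methionine, glutamine, arginine, lysine, aspartate, and the joint glutamate and proline enzyme) assemble with the scaffold proteins Aimp1, Aimp2 and Eef1e1 into the multi-synthetase complex. Transcription of many cytosolic synthetase genes is known to rise in the amino acid response, through the transcription factor ATF4. The 2-cell mouse embryo switches from stored maternal transcripts to those of its own genome while its mitochondria remain maternally derived.

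Each of the 4 groups held 2 libraries of 2-cell embryos, replicates A and B. In the knockdown experiment, control embryos (genotype label WT) were compared with embryos labelled Eif1ad3_KD, in which Eif1ad3 and its variants were the targets. The design text describes CF1 embryos injected at the 1-cell stage with RfxCas13d mRNA alone (controls) or together with guide RNA (knockdown), whereas the samples' treatment protocol names oocytes given control or Eif1ad3 morpholino oligos and Cas13d protein. Both groups thus carried the Cas13d agent by either account. In the immunoprecipitation experiment (RIP-seq), all embryos carried the label Eif1ad3_OE: zygotes had received synthetic mRNA encoding Eif1ad3 with a His tag (200 ng/uL), and RNA was recovered from lysates with an anti-His antibody (His libraries) or with non-specific IgG (IgG libraries, the background). The design text lists 200 overexpressing and 200 control cells for each replicate, while the IgG libraries carry the overexpression label. The tagged protein came from injected mRNA and not from the endogenous locus, so its level is set by the injection. The labels do not say whether replicates were separate collections of embryos, so p-values measure only the spread between these libraries. Because whole embryos were pooled, fewer transcripts per cell and fewer contributing cells cannot be told apart.

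Values are CPM (a gene's reads scaled to a common library total), which are not corrected for transcript length, so levels are compared between libraries and not between genes. The knockdown experiment held 18173916 to 27902514 reads per library, and the immunoprecipitation 4678563 to 8364126. The targeted gene Eif1ad3 was at 839 and 663 CPM in control A and B and at 277 and 377 CPM in knockdown A and B (log2 fold change -1.21), and limma did not call it (adjusted p 0.859). Its IgG values were 1.35 and 30.8 CPM against 80.3 and 83.6 CPM with His, where the injected mRNA may be counted with the endogenous transcript. The 7 transcripts listed as markers of the 2-cell stage summed to 9724 to 12453 CPM in controls and 8872 to 10201 CPM in knockdown libraries, with Dppa3 giving most of each sum. All 7 had a log2 fold change below 0 (median -0.34, none called in limma), whereas 51.3% of all genes tested were above 0. Of the 7, 4 were lower in both knockdown libraries, beside 18.4% of all genes. Among them was Tdpoz4, at 266 and 326 CPM in controls and 150 and 107 CPM after knockdown. The 5 listed cumulus and granulosa cell markers summed to 20.3 to 35.9 CPM over these 4 libraries. The 6 oocyte markers summed to 1548 and 1786 CPM in the controls, 4695 CPM in knockdown A and 1383 CPM in knockdown B, so the knockdown libraries stood on opposite sides of the controls. In the immunoprecipitation the 2-cell markers summed to 938 and 1114 CPM in IgG and to 4679 and 4476 CPM in His, and the cumulus and granulosa markers to 5.91 and 0 CPM and to 54.0 and 54.6 CPM, with Fshr, Has2 and Inhba at 0 in all 4 libraries. The 6 oocyte markers summed to 3126 and 3552 CPM in IgG and to 5475 and 5740 CPM in His. In limma 1 was called higher and 1 lower, beside 35.7% and 0.917% of all genes. The sperm marker Prm2 was at 47.4 and 54.3 CPM in IgG and 1.08 and 7.20 CPM in His. The part of these differences between libraries in the synthetase results was not tested.

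The knockdown comparison asked whether synthetase transcripts differ when Eif1ad3 and its variants are targeted. No synthetase gene passed the test of knockdown against control (limma on log2(CPM + 1), adjusted p under 0.05 by Benjamini-Hochberg over 13332 genes), and 0% of all genes tested did. Of the 37 genes, 35 had at least 1 CPM in at least 2 libraries and were tested; Aars2 and Pars2 were not. The smallest adjusted p among them was 0.859, and 2 genes, Nars and Mars2, had an unadjusted p under 0.05, against 5.45% of all genes tested. edgeR and DESeq2 on the recovered reads also called 0 of the 35 (beside 0% and 0.113% of all genes), with 2 and 3 at an unadjusted p under 0.05 (beside 758 and 1029 of all genes, 5.69% in edgeR). The 2 groups of libraries did not overlap for 12 of the 35 genes, or 34.3%, close to the 36.5% of all genes tested; 5 were higher in both knockdown libraries (18.1% of all genes) and 7 lower (18.4%).

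**Figure D1:**
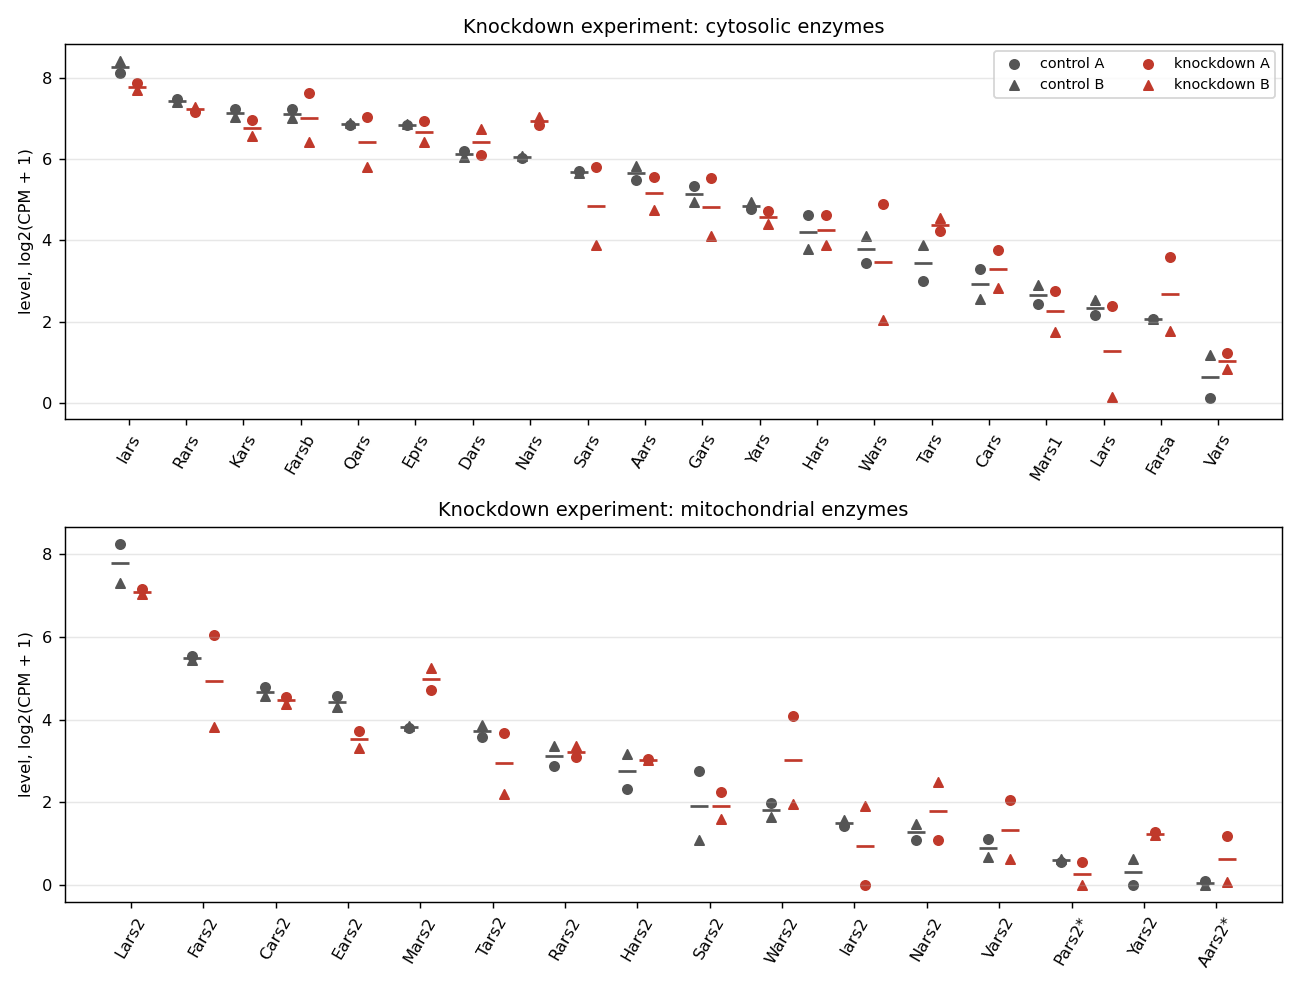
Level of 36 synthetase genes in the knockdown experiment, as log2(CPM + 1), in control (grey) and knockdown (red) libraries, replicate A as circles and B as triangles, with a bar at the mean of each pair; genes are ordered by their control level and an asterisk marks a gene that was not tested. Nars and Mars2 show both knockdown points above both control points, while for Wars, Sars, Lars and Fars2 the knockdown replicates lie far apart.

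Among cytosolic enzymes, Nars and Tars were the 2 genes higher in both knockdown libraries. Nars, which charges asparagine tRNA, was at 65.0 and 66.2 CPM in control A and B and at 115 and 131 CPM in knockdown A and B. The control replicates were nearly equal and both knockdown libraries lay above them, with a log2 fold change of 0.89 (SE 0.34, limma p 0.0318, adjusted p 0.859). Tars, the threonine enzyme, was at 6.96 and 13.7 CPM in controls and 17.9 and 22.4 CPM in knockdown libraries (log2 fold change 0.96, SE 0.52, limma adjusted p 0.859). Its control values differed from each other by more than its nearest control and knockdown values did, and its log2 fold change was 0.51 without control A and 1.40 without control B.

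Cytosolic enzymes below the controls in both knockdown libraries were Iars, Kars, Yars and Rars. Iars, the isoleucine enzyme, was at 280 and 343 CPM in controls and 236 and 207 CPM after knockdown (log2 fold change -0.49, SE 0.32, limma adjusted p 0.859). Kars, the lysine enzyme, was at 150 and 131 CPM in controls and 125 and 94.8 CPM after knockdown, a mean of 141 ± 13.6 against 110 ± 21.3 CPM (SD, n = 2 each). For Iars the gap between the control replicates exceeded the gap between the nearest control and knockdown libraries, and for Kars the knockdown replicates were about as far apart as the 2 means. For Yars, the tyrosine enzyme, the values were 26.2 and 29.7 CPM against 25.5 and 20.2 CPM, and for Rars, the arginine enzyme, 179 and 169 CPM against 143 and 156 CPM. The log2 fold change was -0.36 for Kars (SE 0.35, limma adjusted p 0.903), -0.29 for Yars (SE 0.43, limma adjusted p 0.951) and -0.22 for Rars (limma adjusted p 0.950). Without knockdown A the values for Kars and Yars were -0.56 and -0.45, and without knockdown B -0.17 and -0.12. The other 14 cytosolic genes overlapped between groups, with log2 fold changes from -1.08 (Lars) to 0.61 (Farsa).

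Among mitochondrial enzymes, 3 genes were higher in both knockdown libraries, Mars2 and Yars2 among them. Mars2, which charges methionine tRNA in the organelle, was at 12.8 and 13.4 CPM in controls and at 25.4 and 37.2 CPM after knockdown. Both knockdown values lay above the closely matched controls, with a log2 fold change of 1.17 (SE 0.46, limma p 0.0333, adjusted p 0.859). Yars2, the mitochondrial tyrosine enzyme, rested on few reads: 0 and 14 reads in controls and 40 and 24 in knockdown libraries. Its log2 fold change was 0.93 (SE 0.54, limma adjusted p 0.859), but both controls were under 1 CPM, so it passed the filter only through the knockdown libraries and its direction was built in. The Yars2 value was 0.61 without control A and 1.25 without control B, 0.27 with a pseudocount of 5, 2.52 with a pseudocount of 0.1 and 2.32 in edgeR.

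Ears2, Lars2 and Cars2 were lower in both knockdown libraries. Ears2, the mitochondrial glutamate enzyme, was at 22.8 and 18.6 CPM in controls and 12.3 and 8.97 CPM after knockdown, with a mean of 10.6 ± 2.33 CPM that was 51.3% of the control mean of 20.7 ± 2.91 CPM (SD, n = 2 each). Its log2 fold change was -0.91 (SE 0.48, limma adjusted p 0.859). Lars2, the mitochondrial leucine enzyme, was at 301 and 157 CPM in controls and 141 and 129 CPM after knockdown. Control A was apart from the other 3 libraries, so that the gap between the controls exceeded the gap between control B and either knockdown library. The log2 fold change was -0.68 (SE 0.40, limma adjusted p 0.859), and it was -0.21 without control A and -1.15 without control B. The 18S ribosomal RNA entry Rn18s was at 788 and 1047 CPM in controls and 598 and 386 CPM after knockdown. Cars2, the mitochondrial cysteine enzyme, was at 26.5 and 22.7 CPM in controls and 22.5 and 19.8 CPM after knockdown (log2 fold change -0.20, SE 0.43, limma adjusted p 0.975), with values from -0.31 to -0.10 when a library was left out.

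The median log2 fold change of knockdown against control was -0.25 over the 20 cytosolic genes (13 below 0) and 0.11 over the 15 mitochondrial genes tested (6 below 0), beside 0.02 over all genes, of which 51.3% were above 0. The knockdown replicates did not give the same cytosolic median: relative to the control mean it was 0.15 in knockdown A and -0.50 in knockdown B, while all genes stood at 0.14 and -0.17 and the mitochondrial genes at 0.30 and 0.15. Without knockdown B the cytosolic median was 0.15 and without knockdown A it was -0.56. The mitochondrial median took the other sign without control A, at -0.11, and among genes with a mean of at least 5 CPM, at -0.05.

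Of the 20 cytosolic genes, 16 were lower in knockdown B than in knockdown A, as were 11 of 15 mitochondrial genes, beside 62.5% of all genes tested. Wars, the tryptophan enzyme, was at 29.0 CPM in knockdown A and 3.08 CPM in B, against 9.92 and 16.2 CPM in controls. Sars, the serine enzyme, was at 54.9 and 13.7 CPM against 51.1 and 49.4 CPM, and Lars, the cytosolic leucine enzyme, had 118 and 2 reads against 87 and 119. For these genes knockdown A was near or above the controls and knockdown B well below them. With knockdown A left out, limma called 7 of 32 synthetase genes, Nars and Mars2 higher and Wars, Fars2, Lars, Qars and Sars lower, beside 15.1% of all genes, with knockdown B then assumed to vary like the controls; without knockdown B it called 0 of 34 (4 at an unadjusted p under 0.05, beside 2182 of all genes), beside 3.23%.

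Within the cytosolic class, the 8 enzymes of the multi-synthetase complex had a median log2 fold change of -0.38, with 7 below 0, and the other 12 of -0.03, with 6 below 0. The exception in the complex was Dars, the aspartate enzyme, at 72.3 and 65.1 CPM in controls and 67.6 and 107 CPM after knockdown. This grouping follows textbook membership and was made with the values known, and none of the 20 genes passed the test. The scaffold genes lay on different sides of the controls: Eef1e1 was at 28.6 and 31.2 CPM in controls and 68.6 and 65.5 CPM after knockdown (log2 fold change 1.14, limma p 0.0165, adjusted p 0.859), Aimp2 was at 98.4 and 112 CPM and then 80.8 and 45.4 CPM (log2 fold change -0.78), and the groups overlapped for Aimp1.

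The immunoprecipitation asked which synthetase RNAs come down with the tagged protein more than with IgG. Of the 27 synthetase genes tested, 11 were higher in His at an adjusted p under 0.05 in limma (40.7%, beside 35.7% of the 11232 genes tested) and 1, Lars2, was lower (beside 0.917%; in either direction 36.6% of all genes, and 44.6% at an unadjusted p under 0.05). The share called higher was thus near that of all genes. All 20 cytosolic genes passed the filter on low values and 7 of them were called higher: Farsa, Wars, Farsb, Aars, Cars, Yars and Lars. Only 7 of 17 mitochondrial genes passed the filter, and 4 were called higher, Ears2, Tars2 and Vars2 among them. Of the 11 genes called higher, 10 were under 1 CPM in both IgG libraries (9 of them at 0 reads, and Farsb), and had passed the filter only through their His values, so that a difference was built in for them and their p-values are no support for it; 28.2% of all genes tested had no IgG read. Both His libraries lay above both IgG libraries for 13 of the 27 genes (beside 54.1% of all genes) and below for 2 (beside 9.06%), together 15 (beside 63.1%).

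The calls depended on the test and on the libraries kept. edgeR on the recovered reads called 0 of 27 (12 at an unadjusted p under 0.05; 0% of all genes, 40.9% unadjusted), with a smallest adjusted p of 0.0547, and limma after quantile normalization called 0 of 27 (6 unadjusted) and 0 of 11232 genes overall (2339 unadjusted). DESeq2 called 12 higher (beside 42.4% of all genes) and 2 lower, 14 in all (beside 49.1%); over all genes it called 4766 higher and 747 lower, against 4008 and 103 in limma. Leaving out His A or His B gave 0 calls in limma among the 16 or 13 synthetase genes then tested (1 unadjusted in each; beside 0.0889% and 0.0888% of all genes). Without IgG A limma called 21 of 26 (69.1% of all genes) and without IgG B 19 of 25 (70%). In each of these fits 1 library stands for its group and is assumed to vary like the pair in the other group.

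**Figure D2:**
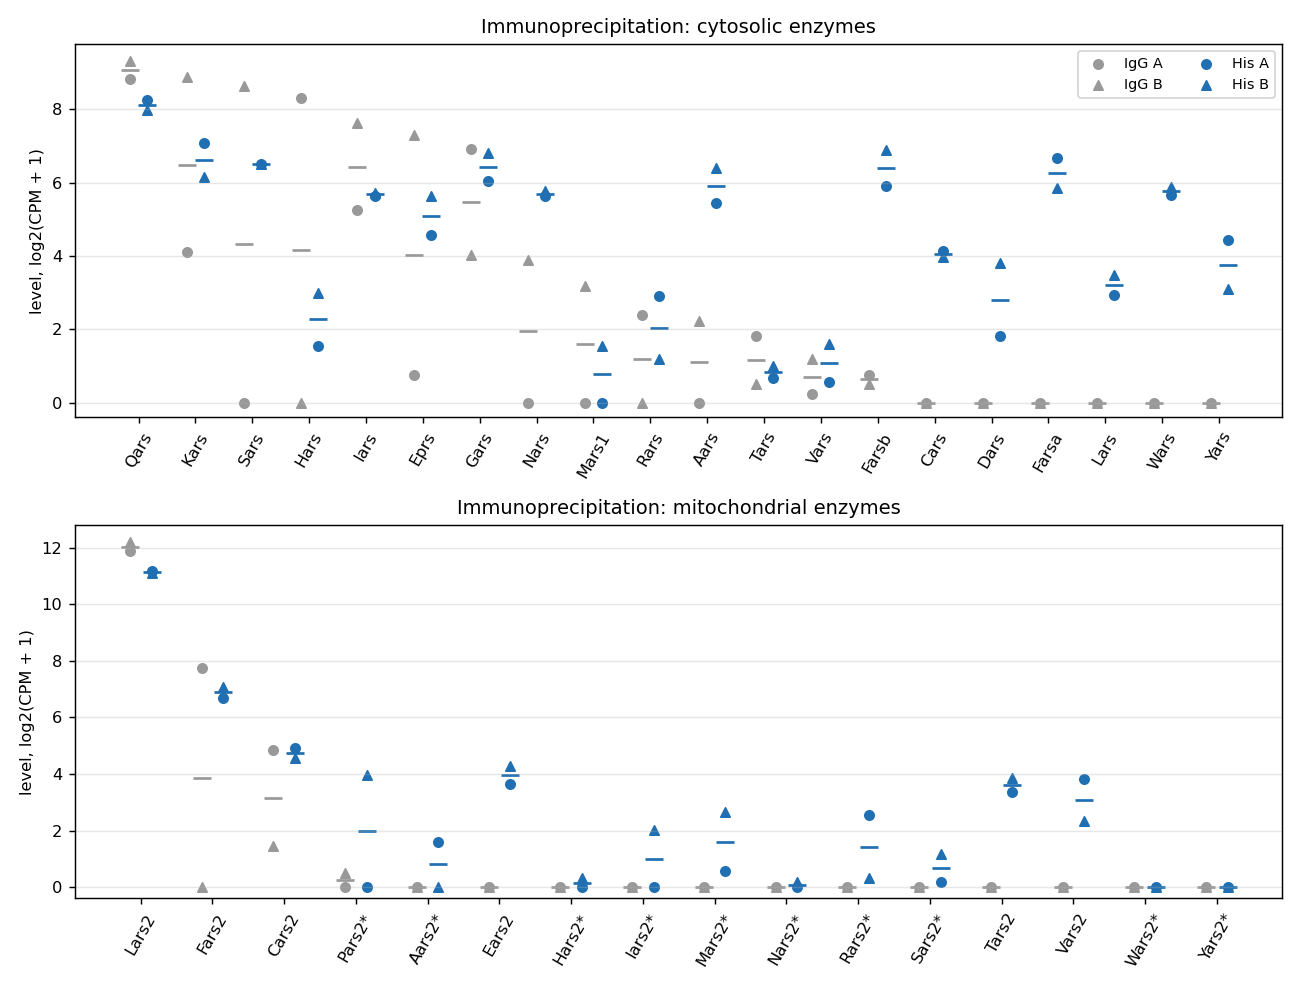
Level of 36 synthetase genes in the immunoprecipitation, as log2(CPM + 1), in IgG (grey) and His (blue) libraries, replicate A as circles and B as triangles, with a bar at the mean of each pair; genes are ordered by their mean IgG level and an asterisk marks a gene that was not tested. For Farsa, Wars and Ears2 both IgG points are at 0 and both His points well above, while Sars, Hars and Fars2 have an IgG point at 0 beside an IgG point above every His point.

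Both subunits of the cytosolic phenylalanine enzyme were recovered with His and nearly absent from IgG. Farsa, the catalytic alpha subunit, had 0 reads in both IgG libraries and reached 101 and 57.0 CPM in the His libraries A and B, at least 281-fold higher when the floor is 3 reads over the IgG group (log2 fold change 6.26, SE 0.62, limma adjusted p 0.00997). Farsb, the beta subunit, had 4 and 2 reads in IgG (0.675 and 0.427 CPM) and 58.9 and 117 CPM with His (a log2 fold change of 5.77, SE 0.73, limma adjusted p 0.0129). The His libraries lay far above both IgG libraries for each subunit, and the order of His A and B was opposite in the 2 genes. Wars had 0 reads in IgG and was at 50.0 and 57.8 CPM in His, at least 190-fold higher by the same floor (log2 fold change 5.78, SE 0.49, limma adjusted p 0.00997). These minimum folds allow for counting error only. For Sars, a 0 in IgG A stood beside 397 CPM in IgG B. Farsa, Farsb and Wars also passed the filter only through His, so their p-values are no support for the difference.

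Cars, Yars, Lars and Aars were the other cytosolic genes called higher. Cars, the cysteine enzyme, was at 16.4 and 14.7 CPM in His, Yars at 20.4 and 7.58 CPM, and Lars at 6.58 and 10.1 CPM, with no read in IgG for any of these genes. Aars, the alanine enzyme, was at 0 and 3.63 CPM in IgG and 42.6 and 82.6 CPM in His, with a limma adjusted p of 0.0489, just under the threshold. Its adjusted p was 0.246 in edgeR, and its limma call was lost with a pseudocount of 0.1, with no filter on low values, with median rescaling, when a mean of 5 CPM was required, without a trend and with the replicate block. Dars, with no IgG read, and Nars, with 0 and 13.9 CPM in IgG, were above IgG in both His libraries (2.51 and 12.9 CPM, and 48.9 and 53.0 CPM), but their limma adjusted p of 0.0776 and 0.194 did not pass. Dars passed in DESeq2 (adjusted p 0.000761) and in limma with a pseudocount of 0.1 or the replicate block, and not in edgeR (0.0664). With no IgG read, Dars had passed the filter only through His, so these results are no support for a difference.

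Qars, the glutamine enzyme, was the cytosolic gene with both His libraries below both IgG libraries. It was at 455 and 635 CPM in IgG and 306 and 253 CPM with His (a log2 fold change of -0.95, SE 0.33, limma adjusted p 0.125). The difference passed in DESeq2, with an adjusted p of 0.000185, and not in edgeR, with 0.234, and limma called it without IgG A (0.00287) or without IgG B (0.0222), with the IgG group then a single library.

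For 10 cytosolic genes the groups overlapped, and in several of them the IgG replicates lay far apart. Sars was at 0 CPM in IgG A, 397 CPM in IgG B, and 90.1 and 89.2 CPM in His. Hars, the histidine enzyme, was at 313 and 0 CPM in IgG and 1.91 and 6.95 CPM in His. Eprs was at 0.675 and 157 CPM in IgG and 22.8 and 48.2 CPM in His, and Kars at 16.2 and 469 CPM against 133 and 70.0 CPM. In each of these genes 1 IgG library lay above both His libraries and the other below both. The median ratio of the higher to the lower replicate, over cytosolic genes with reads in both, was 6.76 in IgG and 1.77 in His.

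Among mitochondrial enzymes, Ears2, Tars2 and Vars2 had no IgG read in either library. They passed the filter only through His, so a difference was built in and their p-values are no support for it. Ears2 was at 11.6 and 18.4 CPM in His, at least 52.8-fold above the floor of 3 reads over the IgG group (log2 fold change 3.97, SE 0.39, limma adjusted p 0.00997). Tars2, the mitochondrial threonine enzyme, was at 9.33 and 13.6 CPM, at least 40.4-fold above (log2 fold change 3.62, SE 0.34, limma adjusted p 0.00997). Vars2, the mitochondrial valine enzyme, was at 13.2 and 4.04 CPM, at least 30.8-fold above (log2 fold change 3.08, SE 0.62, limma adjusted p 0.0353). These minimum folds, too, allow for counting error only. The Vars2 replicates differed most of these genes, and its call was lost without a mean-variance trend, with no filter on low values, with a pseudocount of 5 and with median rescaling (limma adjusted p 0.0583 to 0.0953), as well as after quantile normalization (0.728) and in edgeR (0.0547). Ears2 and Tars2 lost their calls in edgeR (adjusted p 0.0547 for both) and after quantile normalization, where their log2 fold changes were 0.75 and 0.46 (limma adjusted p 0.303 and 0.348).

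Lars2, the mitochondrial leucine enzyme, was the synthetase gene called lower in His in limma. It was at 3809 CPM in IgG A and 4656 CPM in IgG B, against 2339 CPM in His A and 2185 CPM in His B, so both His libraries were below both IgG libraries and replicates were close. Its log2 fold change was -0.90 (SE 0.12, limma adjusted p 0.0141; edgeR 0.0547, DESeq2 1.56e-15; limma 0.164 after quantile normalization, 0.169 without a trend, 0.795 without His A and 1 without His B). Lars2 made up 76.2% and 71.0% of the summed CPM of all synthetase genes in IgG and 66.1% and 63.3% in His, against 8.08% to 16.8% in the 4 libraries of the knockdown experiment, a separately normalized table. Rn18s, the 18S ribosomal RNA entry, was at 11905 and 15432 CPM in IgG and 9374 and 9113 CPM in His, and Lars2 stood at 0.320, 0.302, 0.249 and 0.240 of its level in IgG A, IgG B, His A and His B. In controls and knockdown libraries that ratio ranged from 0.150 to 0.382. Rn18s was set beside Lars2 after their values were seen, and its part in the Lars2 difference was not tested.

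The other mitochondrial genes described were not called or not tested. Fars2, the mitochondrial phenylalanine enzyme, was at 213 and 0 CPM in IgG and 102 and 134 CPM in His, and Cars2 at 28.0 and 1.71 CPM against 29.5 and 22.5 CPM, so both overlapped. Of the 10 genes not tested, Wars2 and Yars2 had 0 reads in all 4 libraries, and Hars2 and Nars2 had at most 2 reads in any library. Mars2, Rars2, Sars2, Iars2, Aars2 and Pars2 had a His library between 1.26 and 14.5 CPM and at most 2 reads in IgG. A count of 0 allows up to 3 reads, or 0.506 to 0.641 CPM in the IgG libraries and 0.359 to 0.379 CPM in the His libraries, so low levels were not detectable at this depth (counting error only). In IgG a 0 also occurred beside a high value, as for Fars2 at 213 and 0 CPM, and the floor does not cover such differences.

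**Figure D3:**
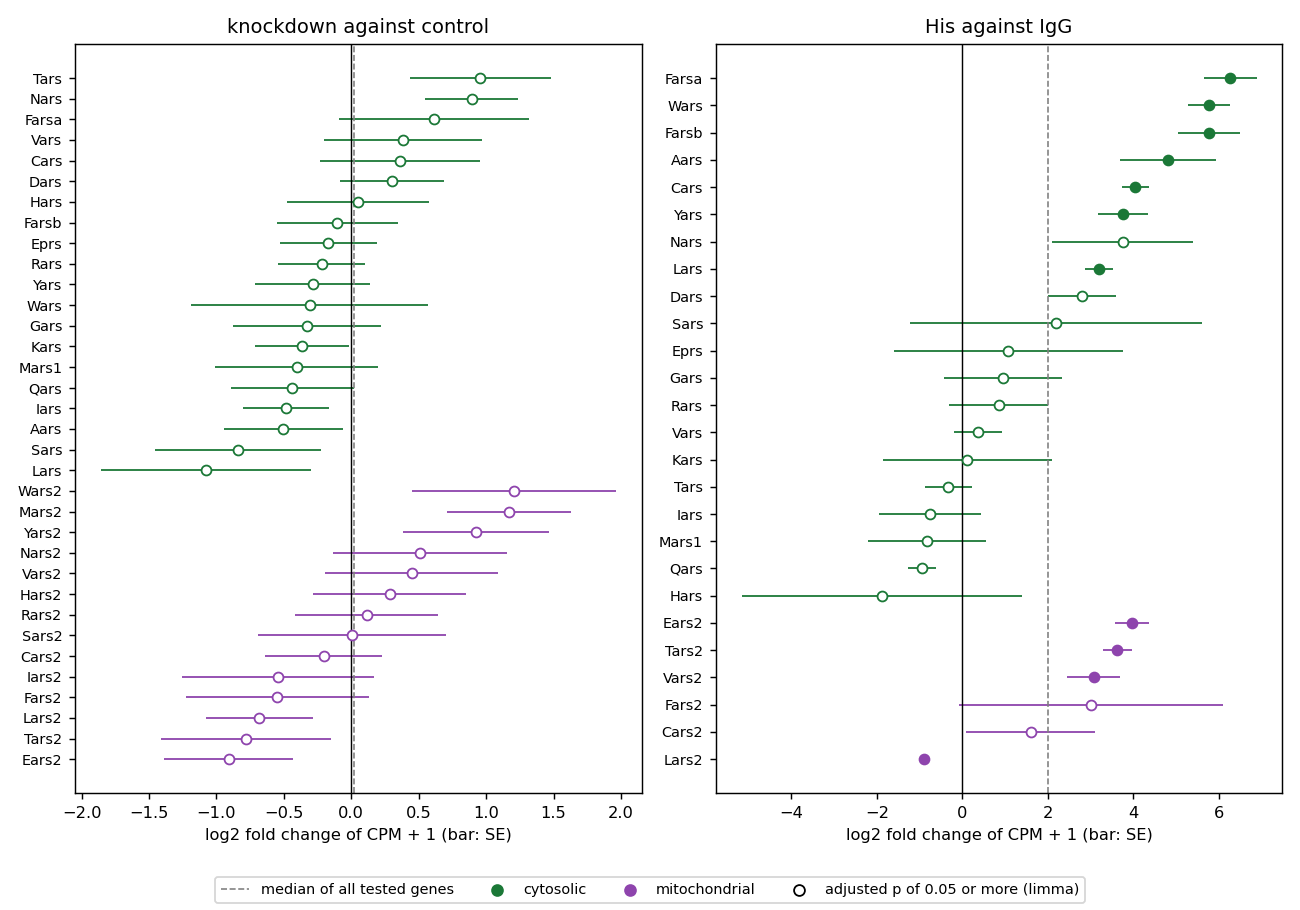
Log2 fold change of CPM + 1 for tested synthetase genes in knockdown against control (left, 34 genes) and His against IgG (right, 26 genes); bars are limma's standard errors, green marks cytosolic and purple mitochondrial enzymes, filled points have an adjusted p under 0.05 and the dashed line is the median of all genes tested. No point is filled on the left, and on the right 10 filled points lie above 0 and Lars2 below 0.

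Compared as classes, the median log2 fold change of His against IgG was 1.63 in the cytosolic genes (15 of 20 above 0) and 3.01 in the 7 tested mitochondrial genes (6 of 7 above 0), beside 2.01 over all genes, of which 78.5% were above 0. Because 4 of those 7 mitochondrial genes had 0 reads in both IgG libraries and 10 of 17 were not tested, the 2 medians cover differently filtered genes; with no filter on low values the mitochondrial median was 1.59. After quantile normalization, which moved the median of all genes to -0.08, the class medians were 0.14 and 0.19, and the cytosolic median was -0.01 without His A. The order of the classes turned without IgG B, where the cytosolic and mitochondrial medians were 3.48 and 2.08, and with no filter on low values (1.63 and 1.59). It stayed when a mean of 5 CPM was required (2.97 and 3.01), without His B (0.57 and 1.78) and in edgeR (0.72 and 7.42). The 8 cytosolic enzymes of the multi-synthetase complex had a median of 0.48, with 1 of 8 called higher (Lars). The other 12 had a median of 3.76, with 6 of 12 called higher, beside 35.7% of all genes. Except for Aars, the genes called higher here were under 1 CPM in both IgG libraries and passed the filter only through His. These calls are thus no support for a difference, and such genes also enter the medians. The difference between the 2 groups of enzymes was not tested, and this textbook grouping was made with the values known.

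**Figure D4:**
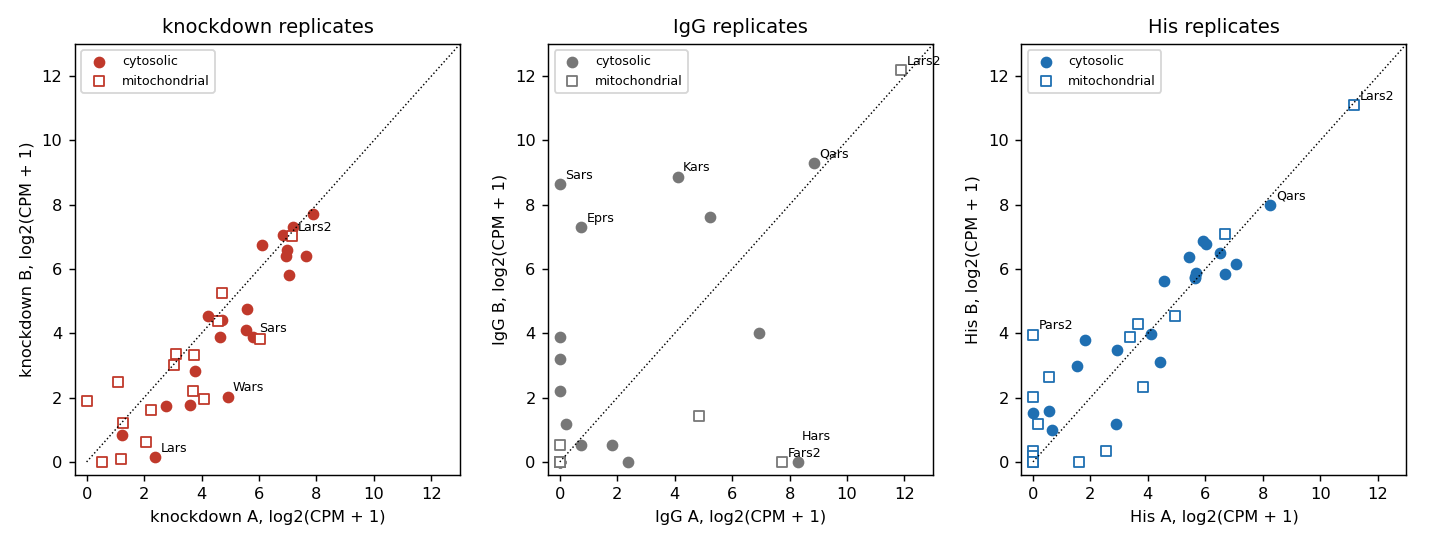
Replicate B against replicate A for 36 synthetase genes in knockdown, IgG and His libraries, as log2(CPM + 1), with cytosolic enzymes as filled circles, mitochondrial enzymes as open squares and a dotted line of equality. IgG points such as Sars, Hars and Fars2 lie on an axis, with reads in only 1 replicate, whereas most His points lie near the line and knockdown points lie mostly below it.

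Genes that act beside the synthetases were read from lists, with 0 called in knockdown against control in every list (limma adjusted p). In the list for tRNA processing and export 25 of 26 genes were tested; 14 had a log2 fold change above 0 and 11 below. Tsen15, a subunit of the tRNA splicing endonuclease, was at 6.998 and 6.35 CPM in controls and 18.1 and 20.3 CPM after knockdown (limma p 0.0210, adjusted p 0.859). All 4 genes of the list for mitochondrial glutaminyl-tRNA and initiator tRNA modification had a log2 fold change above 0, with Gatb, a subunit of the glutaminyl-tRNA amidotransferase, at 0.400 and 0.361 CPM in controls and 2.44 and 3.69 CPM after knockdown. Gatb passed the filter only through the knockdown libraries, so its direction was built in. Of 5 tested genes that deliver charged tRNA to the ribosome, 3 were below 0, with Eef1a1, the elongation factor that binds aminoacyl-tRNA, at 656 and 739 CPM in controls and 523 and 228 CPM after knockdown (limma p 0.0431, adjusted p 0.859). The 7 tested editing and synthetase-related genes had 4 above 0 and the 7 selenocysteine charging genes 4 above 0.

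In the amino acid response list 19 of 22 genes were tested and 11 had a log2 fold change below 0 in knockdown embryos. Atf4 was at 177 and 239 CPM in controls and 187 and 107 CPM after knockdown, so the groups overlapped. Sesn2, an inhibitor of the growth kinase complex mTORC1, was at 43.5 and 59.8 CPM in controls and 21.8 and 17.9 CPM after knockdown, with a log2 fold change of -1.33 (limma p 0.0133, adjusted p 0.859).

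Between His and IgG, 8 of 22 tested tRNA processing and export genes were called higher and 0 lower in limma, as were 3 of 5 delivery factors, 4 of 18 amino acid response genes, 3 of 7 editing and synthetase-related genes, 1 of 2 tested mitochondrial tRNA modification genes and 1 of 6 selenocysteine genes, beside 35.7% higher over all genes. Among the genes tested, 7 for processing and export, 1 for delivery, 3 of the amino acid response, 2 for editing and both for mitochondrial modification had 0 reads in both IgG libraries and passed the filter only through His, so these counts are a description. Of the 2 scaffold genes tested, Aimp2 and Eef1e1, neither was called. Tsfm, the exchange factor of mitochondrial translation elongation, was at 0 and 0.427 CPM in IgG and 94.5 and 96.7 CPM with His (log2 fold change 6.34, limma adjusted p 0.00997). Sephs2, a selenophosphate synthetase, was at 0 and 0.855 CPM in IgG and 172 and 181 CPM with His (log2 fold change 7.02, limma adjusted p 0.0109). Both genes were under 1 CPM in IgG and so passed the filter only through His, with the same built-in difference.

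The promoters are shown because the amino acid response reaches synthetase genes through a short element, TGATGNAA, bound by ATF4 and its partners. RefSeq (GRCm38.p6, not the build named for the counts) held start-site windows for 27 of the 37 genes, and the 250 bases before the start were searched on both strands. The element was present for 3 of 13 cytosolic genes (Aars, Gars and Tars) and 0 of 14 mitochondrial genes, against 3.91% of 27025 genes with a window. Cytosolic genes without a window, Nars and Wars among them, were not searched, nor was sequence outside the 250 bases. The 2 windows with the element closest to the start are printed 5′ to 3′ on the gene's strand, with the element in capitals as it reads there (the reverse complement of the letters searched): Gars at chr6:55037751-55038000 on the plus strand and Tars at chr15:11399659-11399908 on the minus strand.
Gars: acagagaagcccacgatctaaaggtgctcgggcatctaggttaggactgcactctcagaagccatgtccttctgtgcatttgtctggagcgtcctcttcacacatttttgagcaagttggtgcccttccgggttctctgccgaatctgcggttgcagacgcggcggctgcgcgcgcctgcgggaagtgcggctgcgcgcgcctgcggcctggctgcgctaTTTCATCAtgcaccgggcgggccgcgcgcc
Tars: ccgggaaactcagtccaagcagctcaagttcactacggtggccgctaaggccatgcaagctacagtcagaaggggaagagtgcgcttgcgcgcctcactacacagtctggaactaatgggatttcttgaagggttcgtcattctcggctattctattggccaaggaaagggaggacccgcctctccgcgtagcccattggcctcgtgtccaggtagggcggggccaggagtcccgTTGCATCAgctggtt
The capitals begin 30 bases before the start in Gars and 15 bases before it in Tars. In knockdown embryos the 3 genes did not share a direction: Tars was higher in both libraries (17.9 and 22.4 CPM against 6.96 and 13.7 CPM), while Gars, at 45.8 and 16.2 CPM against 39.7 and 30.1 CPM, and Aars, at 46.4 and 26.1 CPM against 44.1 and 56.2 CPM, overlapped the controls.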

How the data were processed

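Per the submitters' processing notes, reads were handled with Trim Galore 0.6.7, FastQC, HISAT2 2.2.1, featureCounts 2.0.1 and edgeR, with genome build GRCm39; the annotation, strand setting and gene filter are not given in the sources used here. The authors deposited CPM values per gene in 2 separately normalized tables. In every library 100% of the CPM corresponded to whole reads (within 0.01 read), which were recovered per gene. Of 12 samples, 8 had a column whose name decides its sample; 4 columns were not used, so 3 comparisons planned against total RNA or input could not be made.

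The main test was limma 3.58.1 (R 4.3.3) on log2(CPM + 1), for genes that reached 1 CPM in 2 or more of the libraries compared (lmFit, eBayes with trend, two-sided, Benjamini-Hochberg over all genes, threshold 0.05); the scale understates changes of low genes. Alternatives were count tests of those reads (edgeR 4.0.16, and separately DESeq2 1.42.0), other pseudocounts, filters and scalings, a replicate block and leaving out each library. Tests were checked on simulated data. Fold changes with SE were given, per class and direction, for the 3 genes with the largest change among those whose libraries did not overlap; any other gene was chosen after its values were seen. Members and lists were chosen with earlier results of these data known. Smart-seq2 reads carry no molecular identifiers, so floors cover counting error only. Values of 2 genes are not reported here, although they are included in the counts and medians.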

Additional observations from a re-analysis of the deposited data

How the results depend on the processing

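The synthetase genes whose fold change is given with its SE kept their direction in every alternative that tested them. Their groups did not overlap, by the rule of choice. Leaving out a library, or another pseudocount, filter, trend or block, therefore could not turn their direction. Only median rescaling, quantile normalization, edgeR and DESeq2 could have turned it. Farsa, Wars, Farsb, Ears2, Tars2, Vars2 and Yars2 had also passed the filter only through the higher group. Of these, all but Yars2 were not tested without His A or His B, and Yars2 was not tested without knockdown A or B. Vars2 and Yars2 were not tested when a mean of 5 CPM was required. In knockdown against control, the count of 0 genes called over all genes (726 at an unadjusted p under 0.05) became 2 with the replicate block and 15 with DESeq2, and ranged from 0 to 1894 when a library was left out (414 without knockdown B, 1894 without knockdown A); the count of 0 synthetase genes ranged from 0 to 7. In His against IgG, the count of 4111 genes fell to 2356 when a mean of 5 CPM was required, to 2142 with median rescaling, and to 0 with quantile normalization (2339 unadjusted) and edgeR (4592 unadjusted), and ranged from 6 to 7679 when a library was left out. The 12 synthetase genes called became 0 with quantile normalization and with edgeR and ranged from 0 to 21 when a library was left out. In the other alternatives 8 to 14 were called. With the replicate block 12 were called, and 3894 over all genes; Dars entered and Aars left. Same-letter deviations correlated at 0.146 in the knockdown experiment and -0.014 in the immunoprecipitation, and the labels do not say that a letter marks shared handling. What caused these shifts was not tested; without His A or His B, 6750 and 6754 genes were tested in place of 11232. The 3 comparisons planned against total RNA or input could not be made from the columns used. Replicates number 2 a group, and depth in the IgG libraries sets a floor of 0.506 to 0.641 CPM for counting error alone.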

Other observations

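Levels of the same synthetase genes in control embryos and in His libraries can be set side by side, although the 2 tables were normalized separately and come from different embryos, so the ratios describe these libraries only and carry no test. Rars was at 179 and 169 CPM in control A and B and at 6.46 and 1.26 CPM in His A and B, the lowest ratio of means (0.0222) among genes with at least 10 CPM in controls. Tars followed at a ratio of 0.0777. Dars was at 72.3 and 65.1 CPM in controls and 2.51 and 12.9 CPM in His, a ratio of 0.112, and Iars at 280 and 343 CPM against 48.7 and 51.8 CPM, a ratio of 0.161. Among other enzymes of the multi-synthetase complex, to which Rars, Dars and Iars belong, the ratio was 0.310 for Eprs, 0.721 for Kars, 2.42 for Qars, 2.02 for Lars and 0.175 for Mars1. Lars2 had the highest ratio within the same limit, 9.89, and Wars one of 4.12. IgG lay above His for Lars2 (3809 and 4656 CPM in IgG) and for Qars (455 and 635 CPM), while Wars had 0 CPM in IgG. The ratios thus do not measure recovery over IgG. Farsa, below that limit, was at 3.20 and 3.21 CPM in controls and 101 and 57.0 CPM in His, a ratio of 24.6, whereas Farsb, the other subunit of that enzyme, was at 150 and 129 CPM and then 58.9 and 117 CPM, a ratio of 0.632.

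Aarsd1, which removes wrongly attached amino acids from alanine tRNA, was higher in both IgG libraries (91.6 and 25.4 CPM) than in His (15.1 and 10.4 CPM), a difference that did not pass in limma (adjusted p 0.311) or edgeR (adjusted p 0.349) and passed in DESeq2 (adjusted p 0.0462). It was at 0.200 and 0.562 CPM in controls and 0.860 and 1.38 CPM in knockdown libraries.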
